A study of Drosophila melanogaster with 6 samples.

Results

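The mitochondrial ribosomal protein genes are the genes whose symbol starts with mRpL or mRpS, for the large and the small subunit of the mitochondrial ribosome. They were taken by name from the deposited table, a rule that uses no measured value, although the gene family was picked with earlier results of these data known. The table holds 73 such genes among its 14240 genes, 47 of the large and 26 of the small subunit, with 96 of its 30828 transcripts. In the BDGP6.54 annotation they lie on every major chromosome arm, 12 on 2L, 12 on 2R, 17 on 3L, 21 on 3R and 11 on X.

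Mitochondria translate the few respiratory chain subunits of their own genome on ribosomes of their own. The RNAs of this ribosome are made inside the organelle, while its proteins are encoded in the nucleus, translated in the cytoplasm, imported and assembled there. Some of the proteins have counterparts in the bacterial ribosome and others occur only in mitochondria. Every cell that respires uses them, and in Drosophila a mutation in one of them, tko, leads to flies that seize when shaken.

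RNA was captured from the carcasses of early L3 larvae, with the central nervous system dissected away, in 3 sample types of 2 libraries each. EC-RNA came from 109(2)80-Gal4 ; UAS-CD:UPRT larvae fed 5-ethynylcytosine (5EC), which the enzyme fusion CD:UPRT turns into a tag for RNA in multidendritic (md) sensory neurons, the cells the driver was chosen for. ref-RNA came from UAS-CD:UPRT larvae without a driver that were fed 5-ethynyluridine (5EUd), which tags RNA in all cells without the enzyme, and mock-RNA came from UAS-CD:UPRT larvae fed neither analog. Feeding lasted 12 hours, all 3 sample types carried UAS-CD:UPRT, carcasses were pooled within a sample, and replicates were fed, dissected and purified separately. The driver is also active in the central nervous system, so the cells tagged in EC-RNA depend on the dissection as well as on the driver.

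Values are TPM, abundances scaled for transcript length and for the total of a library, summed over the transcripts of a gene, with blank cells read as 0. The reads behind them could be worked back, since TPM multiplied by transcript length less 199 nucleotides fell on whole multiples of a constant in each library. Within 0.05 of a whole read lay 94.2 and 95.3% of low values in EC-RNA, 89.9 and 90.8% in ref-RNA and 94.9 and 94.0% in mock-RNA, over genes with a single transcript of at least 600 nucleotides and up to 20 reads. The estimated totals came to 2650083 and 7650358 reads in EC-RNA, 47804462 and 56467582 in ref-RNA, and 126913 and 104887 in mock-RNA. For a member of median length, 3 reads were thus worth 3.01 and 1.11 TPM in EC-RNA, 0.212 and 0.179 TPM in ref-RNA, and 62.5 and 113 TPM in mock-RNA. A count of 0 is compatible with up to 3 reads, so these are the lowest levels that a 0 can be told from, and they cover counting error only, since PCR copies are not independent molecules. Genes above 0 numbered 4761 and 5016 in EC-RNA, 9942 and 10369 in ref-RNA, and 2178 and 1812 in mock-RNA.

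The labelled cell type was checked with 8 md neuron markers (ct, kn, ab, ppk, ppk26, Piezo, pain and nompC). Of these, 5 and 5 were above 0 in EC-RNA, 8 and 8 in ref-RNA, and 2 and 3 in mock-RNA, with summed levels of 2.86 and 155 TPM in EC-RNA, 160 and 144 TPM in ref-RNA, and 10.9 and 17.8 TPM in mock-RNA. The md neuron sum was thus far below ref-RNA in EC-RNA 1 and between the ref-RNA values in EC-RNA 2, with ppk26 at 0 in both, so the EC-RNA libraries are called by their label and not by a cell type. General neuron markers summed to 34.9 and 399 TPM in EC-RNA, 99.6 and 84.8 TPM in ref-RNA, and 209 and 142 TPM in mock-RNA. Most of the EC-RNA sums was elav, with 32.35 and 330.7 TPM in EC-RNA, against 63.1 and 54.8 TPM in ref-RNA. Syt1 and futsch were below ref-RNA in both EC-RNA libraries. The values of elav, nSyb, brp, para, cac and Rim overlapped between EC-RNA and ref-RNA. Muscle markers summed to 32130 and 31150 TPM in EC-RNA, 65820 and 59200 TPM in ref-RNA, and 16080 and 35450 TPM in mock-RNA. Epidermis and cuticle markers summed to 26140 and 38940 TPM in EC-RNA, 17300 and 14290 TPM in ref-RNA, and 4393 and 146600 TPM in mock-RNA. These markers did not move together. Lcp1, Lcp2 and Lcp4 were above ref-RNA in both EC-RNA libraries. Cpr47Eg was below it, with 0 and 0.928 TPM in EC-RNA, against 179 and 177 TPM in ref-RNA. The values of Lcp3, shg and Cht2 overlapped between EC-RNA and ref-RNA, and Tb was at 0 in all libraries. Fat body markers summed to 7916 and 11160 TPM in EC-RNA, 10920 and 39990 TPM in ref-RNA, and 43.5 and 255 TPM in mock-RNA. The part of these cell types in the results was not tested.

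In ref-RNA, the RNA newly made in all carcass cells, nearly every member was present at a moderate level. A total of 68 members were above 0 in each ref-RNA library and 66 in both, each with more than 3 reads. The member means had a median of 15.1 TPM and quartiles of 8.87 and 22.2 TPM. The 2 libraries summed to 1406 and 1366 TPM over the members, 0.141 and 0.137% of all TPM. mRpL33, mRpL34 and mRpL36 were listed at 0 in all 6 libraries. Their longest annotated transcripts are short, at 349, 327 and 495 nucleotides.

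mRpS5, whose bacterial counterpart sits at the mRNA entry of the small subunit, was the highest member. It had 153 and 205 TPM in ref-RNA, from 3409 and 5608 reads, which was 3.53-fold the mean of the next member and 12.9% of the summed mean of all members. The gene (FBgn0044510, on 3L from 24537236 to 24543534 in BDGP6.54, matched by symbol) is listed with 3 transcripts. FBtr0111146 had 101 and 143 TPM and FBtr0111144 had 52.0 and 61.6 TPM in ref-RNA, while FBtr0111147 was listed at 0. The members that followed were much closer to each other. mRpS11, a platform protein of the small subunit, had 58.0 and 43.6 TPM in ref-RNA, mRpL13 had 45.3 and 47.4 TPM, mRpS30 had 40.0 and 46.3 TPM and mRpL39 had 44.4 and 33.1 TPM, so that the order of these neighbours was not the same in the 2 libraries. The rest of the 10 highest were mRpL28, mRpS7, mRpL35, mRpL45 and mRpL52, with ref-RNA values between 29.0 and 40.2 TPM.

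**Figure D1:**
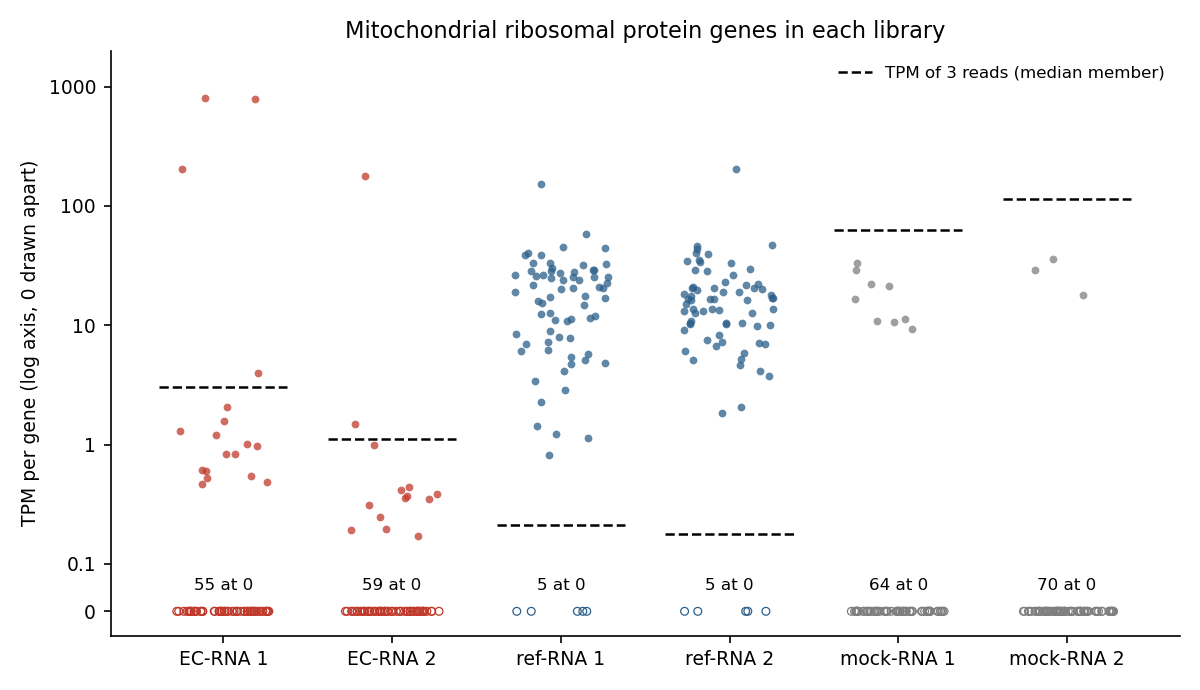
TPM of each of the 73 mitochondrial ribosomal protein genes (points) in each library, on a log axis with genes at 0 drawn as open circles below it; the dashed line marks the TPM that 3 reads are worth for a member of median length. The ref-RNA members sit around a median of 15.1 TPM, 4 EC-RNA values lie at 177.5 TPM or more with all others at 4.02 TPM or less, and every mock-RNA value lies below the line.

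Replicates of ref-RNA agreed for part of the members only, although most rest on more than 100 reads (54 and 58 members). Of the 66 members above 0 in both libraries, 32 differed by no more than 1.5-fold, 46 by no more than 2-fold and 12 by more than 4-fold. Among the 12, mRpS18A had 8 and 238 reads, or 0.825 and 20.7 TPM. A further 4 members had reads in 1 ref-RNA library only, mRpL11 with 0 and 222, mRpS14 with 180 and 0, mRpS17 with 0 and 153 and mRpL14 with 55 and 0, the first 3 named after their values were seen. These differences went beyond counting error. On log2(TPM + 1) the 2 ref-RNA libraries had a Pearson r of 0.519 over the 73 members and of 0.475 over the 5474 genes with a ref-RNA mean of 5 to 50 TPM. The 2 EC-RNA libraries had an r of -0.042 over the same 73 members. Genes are not independent replicates, so these r values are descriptions.

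The 3 mRpS18 genes, which in animals descend from 1 bacterial S18 protein, were compared as a family. mRpS18A, mRpS18B and mRpS18C were listed at 0 in all EC-RNA and mock-RNA libraries. In ref-RNA, mRpS18B had 20.5 and 20.7 TPM, mRpS18C had 10.8 and 6.97 TPM, and mRpS18A had the 0.825 and 20.7 TPM given above. mRpS18B was thus above mRpS18C in both libraries, and the place of mRpS18A could not be set.

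EC-RNA against ref-RNA was designed to ask which RNAs were made more or less in md neurons than in the carcass as a whole. Given the marker values above, its results are described for the EC-RNA libraries and not for md neurons. In EC-RNA most members were missing. Above 0 were 18 members in EC-RNA 1 and 14 in EC-RNA 2, against 68 and 68 in ref-RNA. In both EC-RNA libraries only 5 were above 0 (mRpL19, mRpL21, mRpL37, mRpL38 and mRpS31), in 1 of them 22, and in neither 46, of which 43 were above 0 in ref-RNA. In these bulk samples fewer cells of a type and less RNA per cell cannot be told apart.

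The limma test on log2(TPM + 1), with Benjamini-Hochberg adjustment over the 9064 genes that averaged 1 TPM or more, called 53 of the 70 members tested lower in EC-RNA and 0 higher. Of all genes tested, 56.0% were called lower and 0.199% higher, so a low value in EC-RNA was the common case in this table, beside the 75.7% of members. Among genes with a ref-RNA mean of 5 to 50 TPM and transcripts of 500 to 1500 nucleotides, a range that holds 60 of the members, 78.3% of members and 75.6% of 1728 genes were called lower, so the members' share was near that of genes of like level and length. At an unadjusted p below 0.05 there were 55 members in either direction, and 59.7% of all genes. The median log2 fold change was -3.71 for the members and -2.59 for all genes tested, on the log2(TPM + 1) scale, which understates the change of low genes. Of the 70 members tested, both EC-RNA values lay below both ref-RNA values for 62 (69.1% of all genes tested), above them for 0 (3.16%), and the groups overlapped for 8. A member at 0 in EC-RNA enters this test only if ref-RNA is high enough, so the counts describe the members tested and not all 73.

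Of the 53 members called lower, 34 had no read in either EC-RNA library, 15 had reads in 1 and 4 in both, and none was above 2.08 TPM in EC-RNA. The reads behind these calls were set beside the ref-RNA level. Had EC-RNA 1 held each member at its mean ref-RNA level, the median member would have had 14.9 reads and 69 members at least 3, and in EC-RNA 2 the median would have been 40.5 reads and 70 members would have had at least 3. For all 53, the lower ref-RNA value was above the level of 3 reads in both EC-RNA libraries, which held for 58 members tested. Of those 58 the 53 are 91.4%, and 62.6% of 7913 such genes were called, a description only, since the condition uses the ref-RNA values of the same test. For the 34 without reads, the lower ref-RNA value was set against the higher of the levels that 3 reads are worth in the EC-RNA libraries. It was 1.01-fold to 18.6-fold that level (median 3.01-fold), and at least 10-fold for 6 of them.

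The highest members show the pattern best. mRpS5 had 1.57 and 0 TPM in EC-RNA, against 153 and 205 TPM in ref-RNA. The 1.57 TPM came from about 3 reads (95% exact Poisson interval 0.294 to 4.16 TPM), where 286 would have been found at the ref-RNA level, and EC-RNA 2 had 0 reads where 779 would have been. The log2 fold change was -6.80 (SE 0.85, limma adjusted p 0.0072). The call was lost without ref-RNA 1 or ref-RNA 2 (limma adjusted p 0.0647 and 0.0680), with median-of-ratios scaling (0.110) and with quantile normalization (0.354). mRpS11 had 0 and 0 reads in EC-RNA, against 781 and 695 reads in ref-RNA (limma adjusted p 0.00286). Its lower ref-RNA value was 13.7-fold the higher 3-read level of the EC-RNA libraries. mRpL45, whose mammalian counterpart holds the ribosome to the inner membrane, also had 0 and 0 reads in EC-RNA, against 1053 and 941 reads in ref-RNA. Here that ratio was 18.6-fold. These ratios are not lower bounds of the difference, since the 3-read level covers counting error only. Some members described below had no read in 1 EC-RNA library and more than 100 in the other. mRpS30, counted with the small subunit by its name and found on the large subunit in mammals, had 0 and 4 reads in EC-RNA, or 0 and 0.438 TPM, against 40.0 and 46.3 TPM in ref-RNA. At the ref-RNA level it would have had 139.5 and 379.5 reads in EC-RNA. In each of these 4 genes both EC-RNA values lay below both ref-RNA values.

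**Figure D2:**
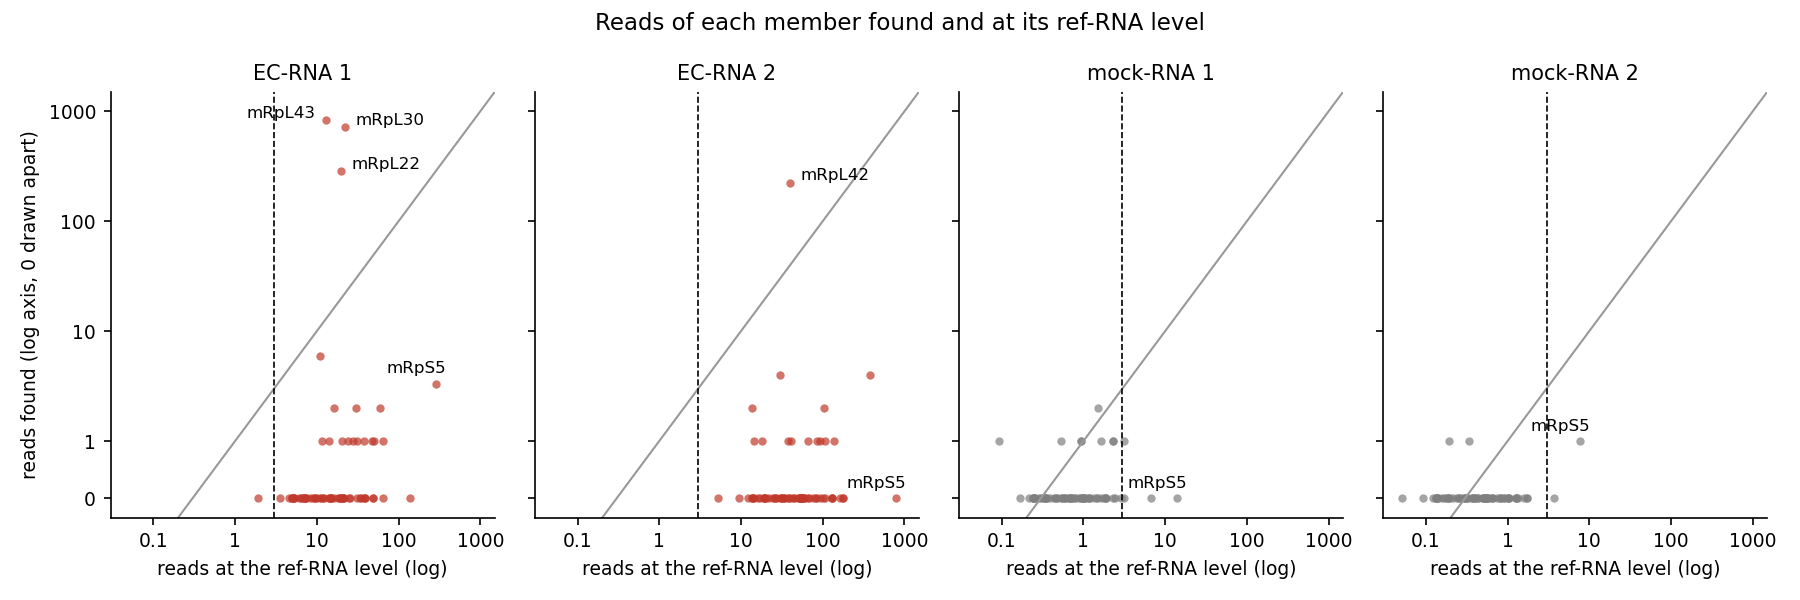
Reads found for each member (vertical, log axis, 0 drawn apart) against the reads the library would hold at the member's mean ref-RNA level (horizontal, log axis), for the EC-RNA and mock-RNA libraries, with a line of equality and a dashed line at 3 reads. In EC-RNA nearly all members lie right of 3 reads and below the line of equality, while in mock-RNA 4 and 2 members reach 3 reads.

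Among the members with reads in both EC-RNA libraries, 4 were called lower. mRpS31 had 0.520 and 0.191 TPM in EC-RNA (1 read each), against 25.7 and 26.5 TPM in ref-RNA. Its log2 fold change was -4.33 (SE 0.28, limma adjusted p 0.00286). Its call was lost with median-of-ratios scaling (-2.22, limma adjusted p 0.0907) and with quantile normalization (-0.20, limma adjusted p 0.807). The next 3 changed sign under quantile normalization. Their calls were also lost with median-of-ratios scaling (limma adjusted p 0.1075 for mRpL37, 0.390 for mRpL21 and 0.452 for mRpL38). mRpL37 had 0.484 and 0.356 TPM in EC-RNA (1 and 2 reads), against 17.7 and 19.2 TPM in ref-RNA, and its log2 fold change of -3.77 (SE 0.22) became 0.29 under quantile normalization. mRpL21 had 0.840 and 0.309 TPM in EC-RNA (1 read each), against 20.8 and 9.17 TPM in ref-RNA, and -3.26 (SE 0.50, limma adjusted p 0.0121) became 0.74. mRpL38 had 0.467 and 0.172 TPM in EC-RNA (1 read each), against 7.88 and 5.12 TPM in ref-RNA, and -2.49 (SE 0.30) became 0.98. With a pseudocount of 10 the log2 fold change of mRpL38 was -0.67, less than 2-fold, and it was not called. A single read has a 95% exact Poisson interval of 0.0253 to 5.57 reads, so the EC-RNA levels of these genes are known only as low.

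The fifth, mRpL19, whose bacterial counterpart helps to hold the subunits together, came nearest to its ref-RNA level among the members with reads in both EC-RNA libraries. It had 4.02 TPM (6 reads, interval 1.47 to 8.74 TPM) and 0.984 TPM (4 reads, interval 0.268 to 2.52 TPM) in EC-RNA, against 4.71 and 9.97 TPM in ref-RNA. The log2 fold change of -1.33 (SE 0.66, limma adjusted p 0.199) was not called, and it turned to 2.45 under quantile normalization and 1.19 under median-of-ratios scaling.

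Against this background, 4 members had one very high EC-RNA value and no read in the other EC-RNA library. mRpL30 had 806 and 0 TPM in EC-RNA (715 and 0 reads), against 33.4 and 17.1 TPM in ref-RNA and 0 in both mock-RNA libraries. mRpL43, a protein specific to mitochondria, had 793.5 and 0 TPM in EC-RNA (827 and 0 reads), against 11.5 and 13.1 TPM in ref-RNA, and 0 and 36.1 TPM in mock-RNA, the last from 1 read. The other 2 were chosen after their values were seen. mRpL22, whose bacterial counterpart lines the exit tunnel, had 206 and 0 TPM in EC-RNA (284 and 0 reads), against 15.4 and 13.1 TPM in ref-RNA. mRpL42 was the only one high in EC-RNA 2, with 0 and 177.5 TPM in EC-RNA (0 and 225 reads), against 28.5 and 34.9 TPM in ref-RNA. In all 4 genes the EC-RNA values spanned the ref-RNA values, and the limma adjusted p was 0.972 for mRpL30, 0.842 for mRpL43, 0.985 for mRpL22 and 0.764 for mRpL42. With EC-RNA 2 left out, the first 3 passed as higher than ref-RNA, as did 7.50% of all genes, and with EC-RNA 1 left out mRpL42 did, as did 10.2% of all genes. In these fits EC-RNA is 1 library, the one with the high value, and it is assumed to vary like ref-RNA, so they are no support for a difference.

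These 4 genes lie apart in the genome, mRpL30 on X from 4647871 to 4648646, mRpL22 on X from 16783933 to 16785092, mRpL42 on 2R from 10066650 to 10067242 and mRpL43 on 2R from 23698105 to 23699014 (BDGP6.54, all on the plus strand). Exons of a gene on the other strand overlap mRpL30 (Torsin), mRpL43 (sigmar) and mRpL42 (Cdc2rk), as they do for 42 of the 73 members, and the sources used here do not say whether strand was used in the counting. Torsin had 2.28 and 381 TPM in EC-RNA, sigmar 0.338 and 0.248 TPM and Cdc2rk 0 and 0 TPM. In no case was the partner high in the library in which the member was high. mRpL22 has no overlapping gene.

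The EC-RNA values of the members therefore fell into 2 classes with a gap between them. Of 32 values above 0, 19 came from 1 read, 6 from 2 or 3 reads, 3 from 4 to 6 reads and 4 from 225 or more. The 3 highest members held 1826 of the 1851 member reads in EC-RNA 1, and mRpL42 held 225 of 246 in EC-RNA 2, where 1789 and 4869 reads would have been found at the ref-RNA level. As summed TPM, the members had 1822 and 183 in EC-RNA, against 1406 and 1366 in ref-RNA. The 3 highest held 99.1% of the first sum, and mRpL42 96.8% of the second. The sums of EC-RNA and ref-RNA overlapped (two-sided exact permutation test over libraries, p = 1.0, where 2 against 2 libraries cannot give less than 0.333). Without those 4 values the sums were 17.1 and 5.91 TPM in EC-RNA.

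**Figure D3:**
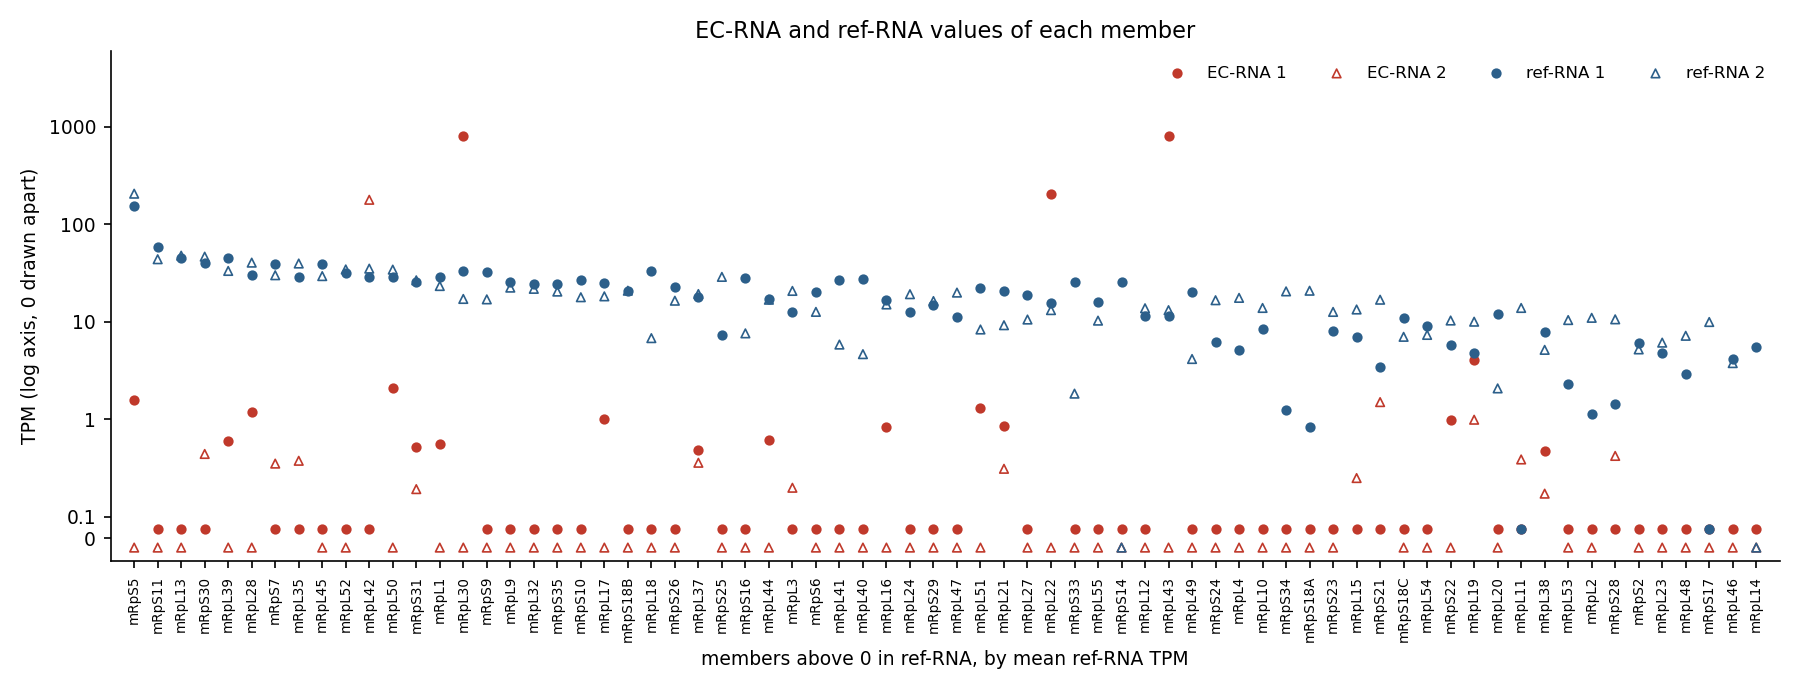
TPM of each member above 0 in ref-RNA, ordered by its ref-RNA mean (horizontal), in the 2 EC-RNA and the 2 ref-RNA libraries (log axis, values of 0 drawn apart at the bottom). The EC-RNA points lie at 0 or below the mean of the ref-RNA points, except mRpL30, mRpL43 and mRpL22 in EC-RNA 1 and mRpL42 in EC-RNA 2.

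This pattern was compared with that of other genes of like detectability, in a comparison chosen after seeing the data. For genes that would have had 10 to 100 reads at their ref-RNA level, 29 of 46 members (63.0%) had no read in EC-RNA 1, and 61.6% of 4610 genes had none. In EC-RNA 2 it was 45 of 55 members (81.8%) and 77.7% of 4319 genes. Values of 11 to 100 reads occurred in 0 members of either library, and in 0.954 and 1.97% of all genes. More than 100 reads were found for 3 of 46 members (6.52%) and 5.21% of all genes in EC-RNA 1, and for 1 of 55 members (1.82%) and 5.02% of all genes in EC-RNA 2. Few values between low and high were thus found among all genes too. By ref-RNA level alone, the shares of members above 0 were lower than those of all genes. Of 65 members with a ref-RNA mean of 5 to 50 TPM, 26.2 and 21.5% were above 0 in EC-RNA, and of the 5474 genes in that band 49.6 and 51.9% were. The longest transcript had a median of 794 nucleotides for these members and 2006 for the genes of the band. With transcripts of 500 to 1500 nucleotides, 26.7 and 18.3% of 60 members and 28.4 and 29.1% of 1728 genes were above 0 in EC-RNA.

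**Figure D4:**
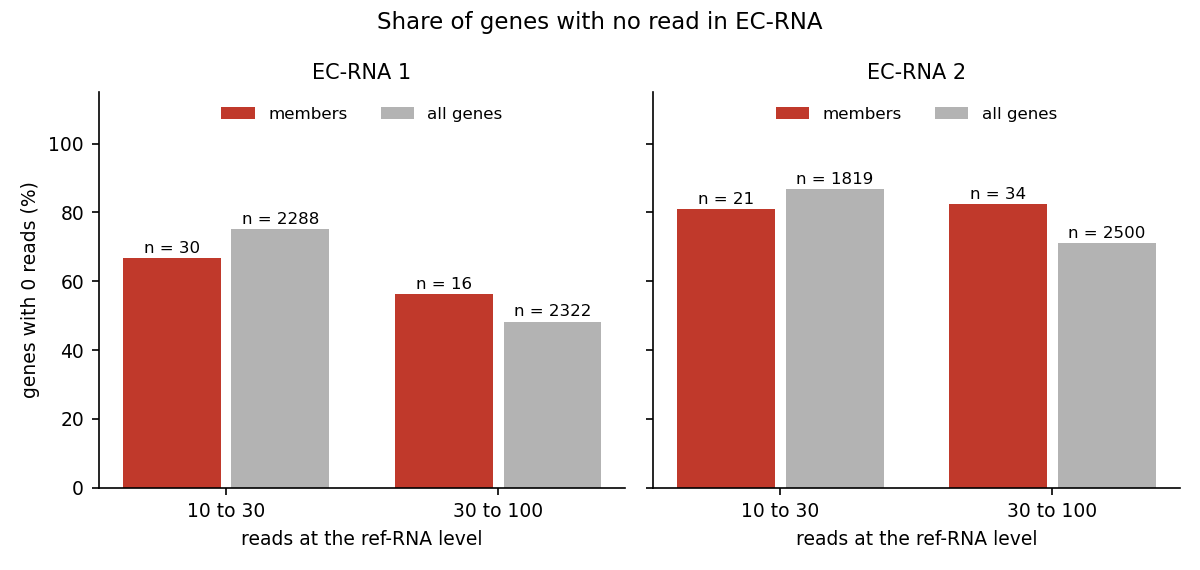
Percentage of genes with no read in each EC-RNA library, for members and for all genes (bars, n above each), by the number of reads they would have at their ref-RNA level. With 10 to 30 reads 66.7% of members and 75.1% of all genes had none in EC-RNA 1, and with 30 to 100 reads 56.3% of members and 48.3% of all genes; in EC-RNA 2 the shares were 81.0 and 86.8%, then 82.4 and 71.0%.

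The 17 members tested and not called were the 4 with one high value and 13 others. In 12 of those 13 the ref-RNA values were more than 4-fold apart or one of them was 0, and the remaining one was mRpL19. The calls were also split by subunit, as given by the symbol. In the large subunit 34 of 44 members tested were called lower and the log2 fold changes had a median of -3.65, and in the small subunit 19 of 26 were called, with a median of -3.98. Members numbered up to mRpL36 or mRpS21 stood for those with a bacterial counterpart, a rough split by symbol only. Of these 28 of 39 (71.8%) were called lower, and of the members with higher numbers 25 of 31 (80.65%), beside the same shares of all genes and of like genes. All 4 high values belonged to the large subunit, which left summed levels of 1819 and 180.5 TPM in EC-RNA, against 799 and 726 TPM in ref-RNA. The small subunit summed to 3.07 and 2.89 TPM in EC-RNA, against 607 and 640 TPM in ref-RNA. No test between the subunits was made.

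mock-RNA serves to show RNA that is purified without a tag. EC-RNA against mock-RNA could be tested for 16 members, and limma called 0 of them in either direction, where 0.342% of 4096 genes were called higher and 0.0244% lower. The smallest adjusted p was 0.589, and 0 members reached an unadjusted p below 0.05. Among the 16 tested, the EC-RNA values were both above the mock-RNA pair for 1, mRpL19 (33.9% of all genes tested), and both below it for 0 (8.57%). With the members not tested there were 5 such genes, all at 0 in mock-RNA and at 0.172 to 4.02 TPM in EC-RNA. In mock-RNA 3 reads are worth 29.1 to 75.5 TPM for these genes, so a difference from mock-RNA was not detectable at this depth. Summed over the members, EC-RNA had 1822 and 183 TPM and mock-RNA 165 and 83.0 TPM, which did not overlap (two-sided exact permutation test, p = 0.333, the smallest possible). Without the 4 high EC-RNA values, left out after they were seen, the EC-RNA sums were 17.1 and 5.91 TPM. The mock-RNA sums rested on 10 and 3 reads. No member was left out of the mock-RNA sums, so the reduced EC-RNA sums cannot be set against them.

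In mock-RNA 9 and 3 members were above 0, none in both libraries, and 61 in neither. Each of these values rested on 1 read, other than mRpL3, a protein near the catalytic centre in bacteria, with 2 reads. The highest were mRpL43 with 0 and 36.1 TPM, mRpS16 with 33.5 and 0 TPM, mRpL14 with 29.2 and 0 TPM, mRpS2 with 0 and 29.1 TPM and mRpL3 with 22.3 and 0 TPM. A single read was worth that much because of the small libraries. The 33.5 TPM of mRpS16 had a 95% exact Poisson interval of 0.848 to 187 TPM, so these values say little about order.

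ref-RNA against mock-RNA gave 48 of 70 members tested as higher in ref-RNA by limma and 0 as lower, where 67.1% of 9025 genes were called higher and 0.731% lower. The log2 fold changes had a median of 3.53 for members and 3.19 for all genes. The ref-RNA values were both above the mock-RNA pair for 60 members (86.3% of all genes tested) and both below it for 0 (1.39%). All 48 were at 0 in both mock-RNA libraries, which held few reads. At the ref-RNA level the median member would have had 0.718 and 0.396 reads in mock-RNA, and all members together 86 and 48, where 10 and 3 were found. The lower ref-RNA value was above the level of 3 reads in both mock-RNA libraries for 2 members only, mRpS30 and mRpS5. mRpS30 was listed at 0 in both mock-RNA libraries, and its lower ref-RNA value was 1.15-fold the higher 3-read level there. mRpS5 had 153 and 205 TPM in ref-RNA, against 0 and 17.9 TPM in mock-RNA (0 and 1 read). Its log2 fold change of 5.36 (SE 1.76, limma adjusted p 0.0749) was not called. It was called with a replicate block (limma adjusted p 0.0483), with all 3 sample types in one fit (0.0479), with a pseudocount of 10 (0.0187), and without mock-RNA 1 or mock-RNA 2 (0.00111 and 0.000337), where the lone mock-RNA library is assumed to vary like ref-RNA. For the other 47 called members, including mRpS11, mRpL13, mRpL39 and mRpL28 with 30.3 to 58.0 TPM in ref-RNA, a difference from mock-RNA was not detectable at this depth. The summed levels, 1406 and 1366 TPM in ref-RNA and 165 and 83.0 TPM in mock-RNA, did not overlap (exact permutation test, p = 0.333, the smallest possible).

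Other genes of the same pathway were set beside the members. Proteins of the same ribosome under other symbols are tko, the small subunit's S12, and bonsai, its S15. tko had 0 and 0 TPM in EC-RNA, against 14.9 and 5.63 TPM in ref-RNA, and was called lower (limma adjusted p 0.0118), and bonsai had 6.45 and 1.05 TPM in EC-RNA, against 25.3 and 35.1 TPM in ref-RNA, and was not (limma adjusted p 0.0598). Of 19 genes of mitochondrial translation factors and RNA polymerase machinery, 17 were tested, 14 were called lower in EC-RNA and 0 higher, against ref-RNA. Among the 14, the elongation factor gene mEFTu1 had 0.368 and 0.135 TPM in EC-RNA, against 31.8 and 35.5 TPM in ref-RNA, and TFAM, which packs mitochondrial DNA, had 0 and 0 TPM in EC-RNA, against 7.55 and 9.88 TPM in ref-RNA. The initiation factor gene mIF3 was like the 4 members above, with 294 and 0.402 TPM in EC-RNA, against 16.7 and 15.4 TPM in ref-RNA. Of 15 mitochondrial aminoacyl-tRNA synthetase genes, 14 were tested, and 10 were called lower and 0 higher. For both lists the share over all genes tested was 56.0% called lower and 0.199% higher. AspRS-m had 0.567 and 60.8 TPM in EC-RNA, against 36.7 and 37.5 TPM in ref-RNA.

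Gene groups with higher ref-RNA levels were set beside them by count. Of 93 genes of the cytoplasmic ribosome, 74 and 74 were above 0 in EC-RNA, with a ref-RNA median of 147 and 158 TPM, and of 86 tested 32 were called lower and 2 higher. Of 85 nuclear genes of oxidative phosphorylation, whose partner subunits the mitochondrial ribosome makes, 53 and 51 were above 0 in EC-RNA, with a ref-RNA median of 86.0 and 83.9 TPM, and of 70 tested 37 were called lower and 1 higher. Over all genes tested, the shares called were 56.0% lower and 0.199% higher. The transcripts of the mitochondrial genome itself took 39.1 and 31.1% of all TPM in EC-RNA, 24.2 and 25.0% in ref-RNA, and 3.87 and 1.42% in mock-RNA. Leaving them out of the total gave a median log2 fold change between EC-RNA and ref-RNA of -3.99 for the members and -2.76 for all genes. The higher ref-RNA levels of these groups moved with the shares above 0, and their part in the difference between groups was not tested.

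**Figure D5:**
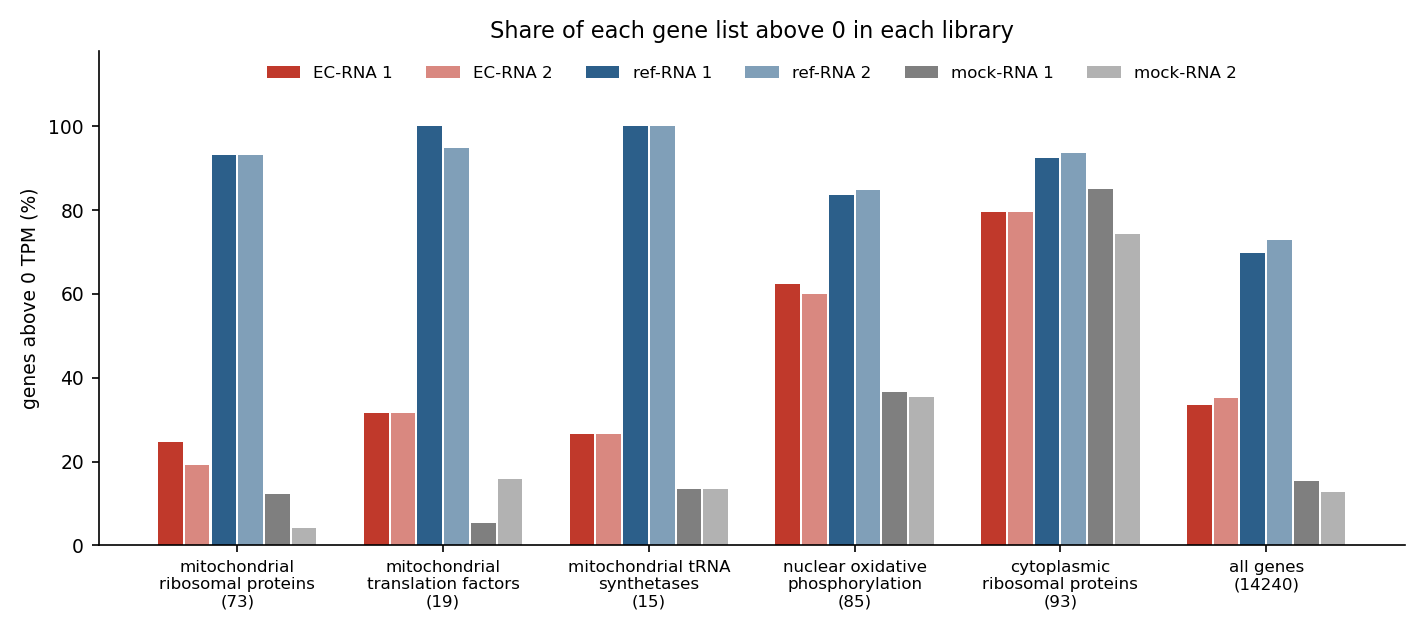
Percentage of the genes of each list above 0 TPM in each library (bars; number of genes under each list, EC-RNA left, ref-RNA in the middle, mock-RNA right). The mitochondrial ribosomal proteins have 24.7 and 19.2% above 0 in EC-RNA, 93.2 and 93.2% in ref-RNA, and 12.3 and 4.11% in mock-RNA.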

How the data were processed

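Per the labels and the study's methods, the authors purified tagged RNA by click chemistry and streptavidin, used Trimmomatic for trimming and kallisto for pseudo-alignment to BDGP6 transcripts. The deposited values are TPM for each transcript in each library. The annotation release is not given in the sources used here. No cell holds a written 0, and 132111 blank cells were read as 0. TPM is scaled within a library, so a few very abundant genes can lower all others.

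TPM were summed per gene. Genes that averaged 1 TPM or more in the 4 libraries of a comparison were tested with limma 3.58.1 in R 4.3.3 on log2(TPM + 1) (trended spread, two-sided), and called at a Benjamini-Hochberg adjusted p below 0.05 and at least 2-fold. Reads were worked back from TPM with transcript lengths of BDGP6.54 (Ensembl release 115), which lists 30593 of the 30828 transcripts. No count test was run on them. Where reads came out unwhole, as in mRpS5 and mRpS9, they were rounded, and the reason was not tested. All other values came from SciPy 1.17.1, NumPy 2.4.6 and pandas 2.3.3 under Python 3.11.15.

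The members and lists were chosen with earlier results of these data known. Named members were those in 8 classes. By level they were the 10 highest and the 3 lowest in ref-RNA. With these came the 5 with the highest lower EC-RNA value and the 5 with the highest mock-RNA value. Any whose EC-RNA values both exceeded the ref-RNA pair were a class too, of which there were 0. The class of called members had 2 parts. One held those called lower in EC-RNA than in ref-RNA with the smallest p, among members above 0 in both EC-RNA libraries. The other held those called in ref-RNA against mock-RNA with the largest fold change. The last classes were the mRpS18 genes, and mRpL30, mRpL43 and members with several abundant transcripts. Alternatives were other filters, pseudocounts, scalings, fits and left-out replicates. Reads per gene, and comparisons that use them, were added after seeing the data.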

Additional observations from a re-analysis of the deposited data

How the results depend on the processing

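The members' median stayed negative for EC-RNA against ref-RNA under every alternative run, while the count of calls moved. Members called lower were 20 of 24 with a filter of 10 TPM (36.5% of all genes), 35 with a pseudocount of 10 (30.3%), 30 with median-of-ratios scaling (28.4%) and 0 with quantile normalization, which called 0 of 9064 genes. Their median log2 fold change was -4.59, -1.22, -2.21 and -0.36 under these, -6.55 with a pseudocount of 0.1, -3.99 without mitochondrially encoded transcripts, -4.11 without the 10 most abundant genes and -3.49 over single transcripts. The median of all genes was -1.22 with median-of-ratios scaling and 0.08 with quantile normalization, against -2.59 as deposited. It was -2.28 with a filter of 10 TPM, and -0.78 and -4.96 with pseudocounts of 10 and 0.1. Without mitochondrially encoded transcripts it was -2.76, without the 10 most abundant genes -2.83 and over single transcripts -2.34. Leaving out each replicate gave 51 to 54 members called lower (54.0 to 62.0% of all genes), 0 to 3 called higher (0.0110 to 10.2%) and medians of -3.84 to -3.53.

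For EC-RNA against mock-RNA the median was -1.73 over the 16 members tested, and 1.91 over all genes tested. It was 0.34 over 35 members with no filter, and 0.39 for all genes. With a filter of 10 TPM it was 3.79 over 4 members, and 3.18 for all genes. The filter sets which members enter, mostly through a few mock-RNA reads or 1 high EC-RNA value, so these medians give no direction. Leaving out each replicate gave medians of -3.34 to 0.00. For ref-RNA against mock-RNA the members called higher were 18 of 29 with a filter of 10 TPM (63.9% of all genes) and 0 with quantile normalization (5.66%). Among members that depth could show it was 1 of 2 (68.1% of such genes). The members' median was 4.58 with the filter of 10 TPM, and 6.72 and 1.21 with pseudocounts of 0.1 and 10. It was 0.04 with quantile normalization and 2.47 with median-of-ratios scaling. Without mitochondrially encoded transcripts it was 3.90, and without the 10 most abundant genes 4.03. In the same order, the medians of all genes were 4.45, 5.84, 1.08, -0.16, 1.95, 3.46 and 3.37. Leaving out each replicate gave 51 to 57 members called higher (64.8 to 70.9% of all genes), 0 to 2 called lower (mRpS2 and mRpL43, each from 1 read, without mock-RNA 1, with 2.12% of all genes) and medians of 3.61 to 3.91. A type left with 1 library is assumed to vary like the other, so such calls say nothing of replication. The cause of these shifts was not tested.

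At 1 TPM or more, EC-RNA held 9 and 2 members. Without mitochondrially encoded transcripts the members summed to 3007 and 266 TPM in EC-RNA, and to 1856 and 1820 TPM in ref-RNA, and without the most abundant member ref-RNA summed to 1253 and 1161 TPM. The log2 fold change between EC-RNA and ref-RNA reversed under quantile normalization for mRpL19 (2.45), mRpL37 (0.29), mRpL21 (0.74) and mRpL38 (0.98), and under median-of-ratios scaling for mRpL19 (1.19).

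Samples with the same replicate number did not deviate together (r of 0.00367, 0.0105 and 0.00126 over 8532 genes), so the numbers are names. With a replicate block, 54 members were called lower in EC-RNA than in ref-RNA (50.1% of all genes) and 51 higher in ref-RNA than in mock-RNA (62.9%). Between EC-RNA and mock-RNA 0 were called, where 3.83% of all genes were higher and 0.903% lower. With 2 libraries a sample type, p-values rest on little replication.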
